A study of Mus musculus with 16 samples.

Results

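Epididymal white adipose tissue (eWAT) of db/db mice that overexpressed LRG1 was compared with that of mice given a control virus at week 7 of age. The 8 libraries compared, 4 of AAV8-LRG1-FL and 4 of AAV8-eGFP, are all libraries that the labels assign to week 7, out of 16 in the series. All mice were C57BLKS/J-db/db males, which lack functional leptin receptor and become obese and diabetic on chow. The virus was injected at 4 weeks of age and carried FLAG-tagged LRG1 or eGFP under the CB7 promoter, which is active in many cell types. Both groups carried AAV8, and untreated mice were not part of the comparison. Mice were assigned by cage, and the cage of each mouse is not given in the sources used here, so cage and treatment cannot be told apart. The study asked whether LRG1 alters inflammation of this depot.

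LRG1, leucine-rich alpha-2-glycoprotein 1, is a secreted glycoprotein made by liver, neutrophils and adipocytes, and is known to modulate TGF-beta signalling through endoglin in endothelium. In obesity, epididymal fat is infiltrated by macrophages that surround dying adipocytes, by CD8 T cells and by other lymphocytes. Interferon-gamma from T and natural killer cells acts through transcription factors such as IRF1, which switch on guanylate-binding proteins, immunoproteasome subunits and the MHC genes in macrophages, endothelium and adipocytes. Inflamed adipocytes lower their expression of insulin-responsive glucose transport and fatty acid synthesis genes.

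Levels are given as CPM, a share of the TMM-normalised library total, for replicates 1 to 4 in that order. Lrg1 (chromosome 17, 56119678 to 56122001 of GRCm38) was counted at 86.2, 108, 110.2 and 107 CPM in the eGFP libraries and at 478, 302, 316 and 288 CPM in the LRG1 libraries. All 4 LRG1 libraries were above all 4 eGFP libraries, and replicate 1 was the highest. The log2 fold change of LRG1 over eGFP (log2FC, given below with its standard error) was 1.75 (SE 0.20, adjusted p = 1.6e-05). Reads of the vector's Lrg1 and of the endogenous gene were counted together. Library totals were 58429048 to 64521251 counts in the eGFP group and 60389142 to 67539937 in the LRG1 group. Mitochondrial ribosomal RNA took 24.1 to 25.8% of the counts in the eGFP libraries and 27.1 to 30.4% in the LRG1 libraries, without overlap. With mitochondrial genes removed, 2170 genes were lower and 1587 higher, close to the counts given next. The adipocyte markers Adipoq, Plin1, Fabp4 and Lep were at 603 to 807, 503 to 560.0, 5315 to 5678 and 2320.4 to 3108 CPM in eGFP tissue, and the mesothelial marker Upk3b, which marks visceral depots, was at 24.8 to 39 CPM. The summed level of 10 epididymis genes was at most 0.0675 CPM in any library, and that of 8 testis genes at most 0.439 CPM.

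Of 20822 genes tested, 3755 (18%) were called at an adjusted p below 0.01 in edgeR's quasi-likelihood test. Lower in the LRG1 group were 2221 genes (10.7%) and higher were 1534 (7.37%). In 4036 genes (19.4%) all 4 LRG1 libraries lay below all 4 eGFP libraries, and in 3876 (18.6%) they lay above. The falls were larger than the rises. Of the genes called lower, 1075 differed by more than 2-fold, 253 by more than 4-fold and 47 by more than 16-fold, whereas 333, 39 and 0 of the genes called higher did so. The median log2 fold change was -0.97 among the genes called lower and 0.66 among those called higher, against 0.01 over all genes tested. Calls were scarce among weakly expressed genes. Among the 25% of genes with the lowest expression 1.82% were called lower and 1.13% higher, and among the 25% with the highest expression 15.7% and 14.3%. Scaling by library totals alone moved the median of all genes to -0.15 and gave 3636 lower and 341 higher, so that 91.4% in place of 59.1% of the calls were lower. Upper quartile scaling moved the median to 0.06 and gave 1957 lower and 1993 higher, or 49.5% lower. Without eGFP replicate 1, LRG1 replicate 3, LRG1 replicate 4, eGFP replicate 4 or eGFP replicate 2, the genes called higher numbered 724, 768, 898, 921 and 951, while the lower ones stayed at 1496 to 1854 without any one library. A fit of only the 8 week-7 libraries called 2581 genes higher and 3146 lower. Of the genes named here without a call, 30 passed in that fit. Because whole tissue was sequenced, fewer cells of a type and less RNA per cell cannot be told apart.

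**Figure D1:**
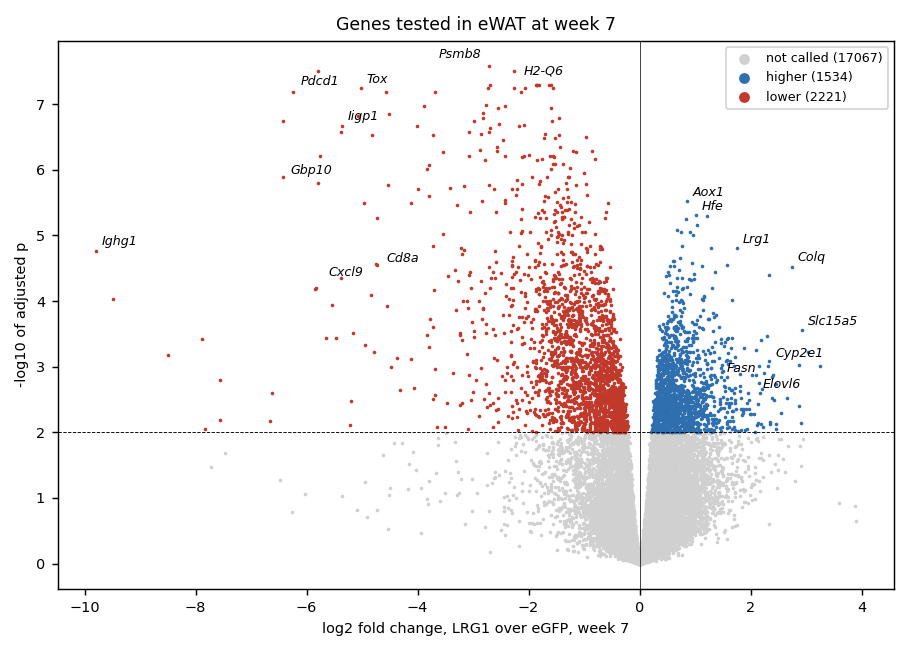
Each point is a gene tested in eWAT at week 7, with the log2 fold change of LRG1 over eGFP on the x axis and the -log10 of the adjusted p on the y axis. Genes lower in LRG1 (2221, red) reached larger fold changes and smaller p than genes higher in LRG1 (1534, blue), and the dashed line marks an adjusted p of 0.01.

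Guanylate-binding proteins (GBPs) and immunity-related GTPases (IRGs) are interferon-induced proteins that attack intracellular pathogens and their vacuoles, and theirs was the lowest median of the lists. Of 19 tested, 18 fell and none rose, with a median log2 fold change of -3.19. The exception was Irgq, an atypical member, at log2FC 0.21 (SE 0.10). The fall reached all 5 tested genes of the chromosome 3 cluster (142493978 to 142638008 of GRCm38), all 6 of the chromosome 5 cluster (105014150 to 105346472), all 6 on chromosome 11 and Iigp1. Summed over the list, the eGFP libraries held 4066, 2417, 1978 and 3393 CPM. The LRG1 libraries held 232, 365, 221 and 263 CPM. Replicate 1 was the highest eGFP library for all 18 genes that fell, and replicate 2 the highest LRG1 library for 17 of them, so the genes varied together among mice of a group as well.

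Igtp, an IRG of chromosome 11 (58199556 to 58207591), was at 302, 173, 133 and 245 CPM in the eGFP libraries and 4.73, 10.4, 4.14 and 6.0 CPM in the LRG1 libraries. The lowest eGFP library was far above the highest LRG1 library, and the log2 fold change was -5.08 (SE 0.36, adjusted p = 1.5e-07). Gbp6 was at 161, 86.8, 74.3 and 139.6 CPM against 4.04, 6.78, 4.63 and 4.03 CPM. This GBP of the chromosome 5 cluster was again highest in eGFP replicate 1 and LRG1 replicate 2, at a log2 fold change of -4.56 (SE 0.30, adjusted p = 6.7e-08). Gbp2 had the highest level per length of the list, at a mean of 225 RPKM in the eGFP group and 34.1 RPKM in the LRG1 group (log2FC -2.72, SE 0.21). The smallest falls were in Gbp9 at log2FC -1.43 (SE 0.21) and Gbp2b at log2FC -1.82 (SE 0.16). Close copies such as Tgtp1 (-5.75) and Tgtp2 (-5.80) share sequence, and how the counting divided reads between them is not given in the sources used here.

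Promoters of these genes were searched for 2 known binding patterns on both strands, the gamma-activated sequence (TTCNNNGAA) and an interferon-regulatory-factor pattern (GAAANNGAA). RefSeq promoter windows (GRCm38.p6, 250 bases before to 50 after a start) were available for 11 of the 18 GTPase genes that fell. Of these, 6 (54.5%) held the first pattern and 10 (90.9%) the second, against 8.43% and 9.14% of 12867 tested genes with a window. Over all genes called lower the shares were 9.79% and 14.9% of 1635 genes, and over all genes called higher 7.37% and 6.31% of 1126. Among the 157 genes with a window that fell by more than 4-fold, 19.1% held the first and 25.5% the second. A match is a description of the letters in the window and not evidence of binding. The 150 bases before the start are printed for 4 genes that fell, to show how closely both patterns can lie, with either pattern in capitals.
Igtp (chr11:58199406-58199555, plus strand): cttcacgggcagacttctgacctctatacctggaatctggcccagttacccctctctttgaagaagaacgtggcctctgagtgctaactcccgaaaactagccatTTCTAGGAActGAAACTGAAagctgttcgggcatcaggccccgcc
Irgm2 (chr11:58214827-58214976, plus strand): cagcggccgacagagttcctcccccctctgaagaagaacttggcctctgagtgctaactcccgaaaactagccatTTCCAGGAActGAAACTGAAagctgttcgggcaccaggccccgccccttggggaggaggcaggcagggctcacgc
Gbp7 (chr3:142530186-142530335, plus strand): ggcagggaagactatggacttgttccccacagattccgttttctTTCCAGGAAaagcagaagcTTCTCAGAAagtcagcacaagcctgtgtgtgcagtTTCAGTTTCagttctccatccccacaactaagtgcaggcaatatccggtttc
Irf1 (chr11:53769864-53770013, plus strand): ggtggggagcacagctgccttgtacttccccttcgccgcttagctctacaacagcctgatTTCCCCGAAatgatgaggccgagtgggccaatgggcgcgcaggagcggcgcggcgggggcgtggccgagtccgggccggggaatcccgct
Igtp and Irgm2 carried the first pattern and the second 2 bases apart. Gbp7 carried the first pattern at 2 positions and the second at 1. Irf1 carried only the first pattern in this stretch.

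The signalling genes upstream of these targets fell less, apart from the ligand. Ifng, which encodes interferon-gamma, was at 1.36, 1.24, 0.692 and 1.88 CPM in the eGFP libraries and at 0, 0.0338, 0 and 0.0861 CPM in the LRG1 libraries. It was not counted at all in LRG1 replicates 1 and 3, and its log2 fold change of -5.37 (SE 0.68, adjusted p = 4.5e-05) rests on 7 counts in that group. Irf1 was at log2FC -1.76 (SE 0.18) and Irf8, a factor of macrophages, at log2FC -1.45 (SE 0.16). Socs1, which inhibits the receptor's kinases and is itself induced by interferon-gamma, was at log2FC -1.40 (SE 0.29). Of the receptor chains and kinases, Ifngr2 and Jak2 fell slightly, at log2FC -0.47 (SE 0.13) and log2FC -0.30 (SE 0.07), while Ifngr1 (log2FC 0.22, SE 0.16) and Jak1 (log2FC -0.05, SE 0.07) did not pass the test. Of 11 pathway genes 7 fell, or 4 without replicate 3 of the LRG1 group.

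Of 32 genes better known as targets of type I interferon, 27 fell and none rose, at a smaller median of -1.12. The largest fall was in Zbp1, a sensor of Z-form nucleic acids, at 20.5 to 33.0 CPM against 1.98 to 4.27 CPM (log2FC -3.08, SE 0.23). Isg15 and Rtp4 were at log2FC -2.27 (SE 0.35) and log2FC -2.12 (SE 0.18). Antiviral effectors fell by less, such as Ifit1 at log2FC -1.29 (SE 0.20), Mx1 at log2FC -1.21 (SE 0.20) and Ddx58, the RNA sensor RIG-I, at log2FC -0.54 (SE 0.08). Ifit2 (log2FC -0.57, SE 0.18), Rsad2 (log2FC -0.52, SE 0.31) and Oas2 (log2FC -0.51, SE 0.16) did not pass. Of the 19 promoters at hand for the genes that fell, 68.4% held the GAAANNGAA pattern and 10.5% the TTCNNNGAA pattern. Over all tested genes with a window the shares were 9.14% and 8.43%, so only the first was far from the share over all genes.

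Antigen presentation genes fell in both MHC classes. MHC class I presents peptides of the cell's own proteins to CD8 T cells, and of 18 genes of this route 15 fell, with a median of -1.53. Nlrc5, the transactivator of class I genes, was at 87.6, 61.1, 66.2 and 79.1 CPM in the eGFP libraries and 23.3, 24.4, 22.8 and 24.3 CPM in the LRG1 libraries. The LRG1 values lay close together and far below the eGFP values (log2FC -1.63, SE 0.10, adjusted p = 5.0e-08). H2-Q6, a nonclassical class I gene, was at 140.1, 110.0, 98.7 and 115 CPM against 24.2, 27.7, 20 and 25.0 CPM (log2FC -2.26, SE 0.12, adjusted p = 3.2e-08), with no overlap. The peptide transporter genes Tap1 and Tap2 were at log2FC -2.76 (SE 0.19) and log2FC -1.52 (SE 0.13), and the peptide editor Tapbp at log2FC -0.70 (SE 0.08). The classical class I heavy chains H2-D1 and H2-K1 were at log2FC -1.59 (SE 0.12) and log2FC -1.56 (SE 0.13). B2m, the shared light chain, fell less, at log2FC -0.82 (SE 0.13), but lost more CPM than any other gene named by rule, from a mean of 4847 to 2737. The general chaperones of the route, Calr (log2FC -0.43, SE 0.15), Pdia3 (log2FC -0.32, SE 0.13) and Canx (log2FC -0.12, SE 0.09), did not pass. Calr and Pdia3 did pass in the fit of week 7 alone (adjusted p = 2.7e-04 and 0.00154) and by library totals (0.00292 and 0.0041).

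The immunoproteasome replaces 3 catalytic subunits of the proteasome and adds an activator, which alters the peptides cut for class I. All 5 of its genes fell. Psmb8 was at 66.5, 55.4, 48.6 and 63.0 CPM in the eGFP libraries and at 8.51, 11.3, 7.10 and 8.70 CPM in the LRG1 libraries. It had the smallest adjusted p of all genes named by rule, with all LRG1 libraries several-fold below the eGFP libraries (log2FC -2.71, SE 0.14, adjusted p = 2.6e-08). Psmb9 and Psmb10 were at log2FC -2.82 (SE 0.20) and log2FC -1.81 (SE 0.11), and the activator genes Psme1 and Psme2 at log2FC -0.78 (SE 0.09) and log2FC -0.96 (SE 0.07). The 3 constitutive subunits that they replace did not pass, with Psmb5 at log2FC -0.21 (SE 0.16), Psmb6 at log2FC -0.03 (SE 0.07) and Psmb7 at log2FC 0.04 (SE 0.08). Over all 14 constitutive genes 5 fell, at a median of -0.26, but 2 fell without LRG1 replicate 1, 3 or 4, 1 without eGFP replicate 1 and none without eGFP replicate 2.

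MHC class II, which presents extracellular antigen to CD4 T cells, is made by macrophages, dendritic cells and B cells. Of 14 genes 8 fell and none rose. Ciita, the transactivator that class II transcription depends on, was at 71.7, 47.9, 47.6 and 57.5 CPM in the eGFP libraries and 8.99, 9.52, 6.66 and 9.70 CPM in the LRG1 libraries. No LRG1 library came near the eGFP range, and the log2 fold change was -2.69 (SE 0.17, adjusted p = 5.0e-08). H2-Eb1, H2-Aa and H2-Ab1, chains of the class II molecule, were at log2FC -2.83 (SE 0.20), log2FC -2.57 (SE 0.21) and log2FC -2.55 (SE 0.18). Their chaperone Cd74, the invariant chain, was at 1681 to 2583 CPM against 344 to 441 CPM (log2FC -2.47, SE 0.19), and had the highest level of the list per length, at 1309 and 237 RPKM. The peptide exchange genes H2-DMa and H2-DMb1 were at log2FC -2.27 (SE 0.14) and log2FC -2.74 (SE 0.17). The constant subunits of the promoter-bound complex, Rfx5 (log2FC -0.15, SE 0.11), Rfxank (log2FC 0.03, SE 0.11) and Rfxap (log2FC 0.04, SE 0.08), did not pass. The H2 genes lie on chromosome 17, where 14.6% of tested genes were called lower, the highest share of any chromosome, and 4.77% higher. The H2 haplotype of C57BLKS is not that of the reference strain, which can lower counts of H2 genes in all libraries alike.

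**Figure D2:**
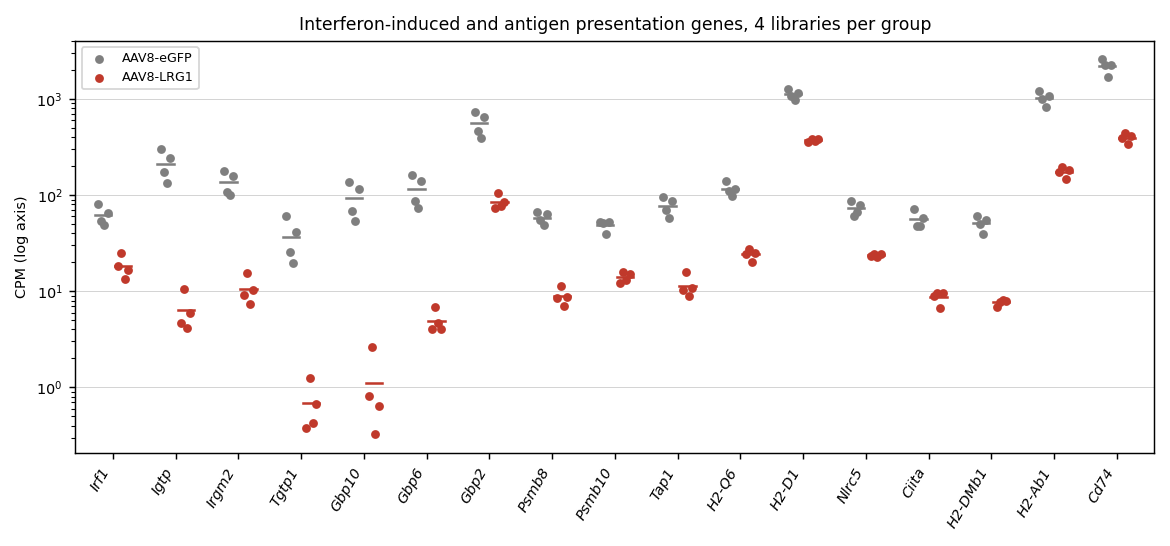
CPM on a log axis in each of the 4 eGFP libraries (grey) and 4 LRG1 libraries (red) for interferon-induced and antigen presentation genes, with a line at the group mean. For each gene the LRG1 libraries lie below all eGFP libraries, and the gap is widest for the GTPase genes Tgtp1 and Gbp10.

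T cell transcripts had the next lowest list median. Of 21 genes of the T cell receptor, its coreceptors and its proximal signalling, 18 fell and none rose, at a median of -2.67. Summed over this list, levels were 162, 158, 98.4 and 149 CPM in the eGFP libraries and 35.2, 49.9, 29.4 and 35.3 CPM in the LRG1 libraries. LRG1 replicate 2 was the highest of its group for 17 of the 18 genes that fell. The CD8 chains, which mark cytotoxic T cells, had Cd8a at 15.1, 12.6, 7.41 and 11.6 CPM against 0.111, 1.32, 0.162 and 0.172 CPM. The groups were far apart, at a log2 fold change of -4.73 (SE 0.57, adjusted p = 2.8e-05), and Cd8b1 was at log2FC -3.82 (SE 0.62). Cd4, which helper T cells and some myeloid cells express, was at log2FC -2.29 (SE 0.29). The signalling genes Zap70, Lck and Lat were at log2FC -3.54 (SE 0.38), log2FC -2.70 (SE 0.36) and log2FC -2.67 (SE 0.34). Thy1 (log2FC -0.51, SE 0.21), which fibroblasts also express, and Cd6 (log2FC -0.78, SE 0.28) and Cd247 (log2FC -1.0, SE 0.34) did not pass. Of 15 T cell receptor variable and constant segments tested, 8 fell and none rose (median -2.89), or 5 without LRG1 replicate 1 or 3.

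Checkpoint and exhaustion genes of T cells fell with a wide range. Of 15 tested, 14 fell, and only Nr4a2 (log2FC -0.91, SE 0.25) did not pass. It did pass with DESeq2 (adjusted p = 0.00210) and by library totals (0.00641). Pdcd1, the inhibitory receptor PD-1, was at 13.8, 9.05, 6.40 and 11.6 CPM in the eGFP libraries and 0.159, 0.135, 0.162 and 0.0689 CPM in the LRG1 libraries. Each LRG1 library was far below the lowest eGFP library, and the log2 fold change was -6.25 (SE 0.41, adjusted p = 6.7e-08). Tox, the transcription factor of exhausted T cells, was at 17.3, 10.5, 7.60 and 15.4 CPM against 0.271, 0.675, 0.260 and 0.362 CPM, again with all LRG1 libraries far lower (log2FC -5.01, SE 0.32, adjusted p = 5.8e-08). Both fell by more than the receptor chain Cd3d (log2FC -3.30, SE 0.32), whereas Lag3 (log2FC -1.08, SE 0.26), Tigit (log2FC -1.51, SE 0.38) and Havcr2 (log2FC -1.95, SE 0.32) were closer to the list's median of -1.72. These differences between genes were not tested. Neither Lag3 nor Tigit was called without eGFP replicate 1 (adjusted p = 0.0195 and 0.0237) or with the replicate number as a block (0.0131 and 0.0124). The PD-1 ligand genes Cd274 and Pdcd1lg2 were at log2FC -1.33 (SE 0.21) and log2FC -2.71 (SE 0.58).

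Effector genes of cytotoxic T and natural killer cells were at log2FC -4.12 (SE 0.74) for the granzyme gene Gzmb, log2FC -2.89 (SE 0.40) for Fasl and log2FC -1.02 (SE 0.23) for Gzma. Of 18 tested, 14 fell. Gzmb was at 11.9, 9.19, 3.56 and 7.84 CPM in the eGFP libraries and 0.255, 1.22, 0.13 and 0.276 CPM in the LRG1 libraries. Replicate 1 was the highest eGFP library for 13 of the 14 genes that fell. Receptors that T cells share with natural killer cells fell, with Klrk1 at log2FC -2.42 (SE 0.24) and Klrd1 at log2FC -1.68 (SE 0.23). Of the genes more restricted to natural killer cells, Ncr1 was at 1.10 to 1.42 and 0.893 to 1.74 CPM (log2FC -0.02, SE 0.22) and Klrb1c at 0.254 to 0.728 and 0.227 to 0.741 CPM (log2FC -0.26, SE 0.40), and neither passed. Of 10 genes of regulatory T cells and type 2 lymphocytes, 3 fell: Ctla4 (log2FC -2.81, SE 0.40), Batf (log2FC -2.01, SE 0.25) and Foxp3 (log2FC -1.61, SE 0.23). Il2ra, the high-affinity interleukin-2 receptor chain, went the other way. It was at 3.80, 5.23, 4.94 and 4.34 CPM in the eGFP libraries and at 9.90, 8.61, 8.87 and 9.96 CPM in the LRG1 libraries, without overlap (log2FC 1.03, SE 0.18, adjusted p = 5.6e-04). Ccr8, a receptor of regulatory T cells, was at 0.586, 0.621, 0.522 and 0.639 CPM in the eGFP libraries and was counted in 1 LRG1 library only, with 2 counts.

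Of 28 chemokine genes 10 fell and 1 rose. Cxcl9, an interferon-gamma-induced ligand of CXCR3, was at 658, 442, 297 and 529 CPM in the eGFP libraries and 9.23, 45.8, 8.5 and 7.84 CPM in the LRG1 libraries. Replicate 2 was the highest LRG1 library and still far below the eGFP libraries (log2FC -4.76, SE 0.57, adjusted p = 2.7e-05). Cxcl10, another ligand of that receptor, was at 20.2, 13.3, 10.6 and 14.5 CPM against 1.03, 2.63, 1.79 and 1.53 CPM. It did not overlap either, at log2FC -3.07 (SE 0.31, adjusted p = 4.3e-06), and the receptor gene Cxcr3 was at log2FC -1.45 (SE 0.24). Ccl3 and Ccl4, chemokines made by macrophages and T cells, were at 19.5, 13.1, 7.50 and 17.7 CPM and 9.05, 6.15, 4.11 and 6.69 CPM in the eGFP libraries. In the LRG1 libraries they were at 2.01, 3.11, 1.41 and 0.792 CPM and 0.573, 1.11, 0.0975 and 0.207 CPM, with no overlap, at log2FC -2.98 (SE 0.47, adjusted p = 2.9e-04) and log2FC -3.70 (SE 0.49, adjusted p = 6.9e-05). Ccl5 was at log2FC -3.84 (SE 0.33). Ccl2, the main chemokine of monocytes, was at 36.9, 60.8, 32.6 and 29.6 CPM against 17.9, 20.8, 12.6 and 21.6 CPM. The groups did not overlap, but the difference did not pass the test (log2FC -1.13, SE 0.36, adjusted p = 0.0254), whereas its receptor Ccr2 fell (log2FC -1.26, SE 0.21). In the fit of week 7 alone the adjusted p of Ccl2 was 9.6e-04, and with DESeq2 it was 0.00577. The homeostatic chemokines Cxcl12 (log2FC 0.06, SE 0.16) and Cxcl13 (log2FC 0.25, SE 0.94) and the eosinophil chemokine Ccl11 (log2FC 0.33, SE 0.15) did not pass. The gene that rose was Ccl24, another eosinophil chemokine, at 1.78 to 2.30 CPM against 3.36 to 4.39 CPM (log2FC 0.95, SE 0.21). Its call was lost without eGFP replicate 1, 3 or 4 or LRG1 replicate 4 and by library totals. Of 20 receptors 8 fell and none rose.

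Of 24 cytokine genes 12 fell and none rose, at a median of -0.56. Tnf, a cytokine that impairs insulin signalling in adipocytes, was at 4.76, 4.78, 3.88 and 5.03 CPM in the eGFP libraries and 1.48, 2.09, 1.15 and 1.62 CPM in the LRG1 libraries. The groups were apart, at a log2 fold change of -1.54 (SE 0.24, adjusted p = 2.3e-04). Il6 was at 0.253, 0.885, 0.466 and 0.351 CPM against 0.668, 0.861, 0.292 and 0.172 CPM, and the groups overlapped (log2FC 0.03, SE 0.55, adjusted p = 0.975). Anti-inflammatory genes were among those that fell: Il1rn, the interleukin-1 receptor antagonist, at 88.3 to 198 CPM against 16.2 to 40.2 CPM (log2FC -2.48, SE 0.49), Il10 at log2FC -1.86 (SE 0.35) and Il18bp, which binds interleukin-18, at log2FC -1.89 (SE 0.23). Subunits of the interleukin-12 family had Il12b at log2FC -2.95 (SE 0.59), Il27 at log2FC -2.38 (SE 0.58) and Ebi3 at log2FC -1.72 (SE 0.27). Il1b (log2FC -0.60, SE 0.69), Il18 (log2FC -0.14, SE 0.18) and Il33 (log2FC 0.29, SE 0.27) did not pass.

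Macrophage genes fell, but by amounts that differed between groups of genes. Of 26 general macrophage and monocyte genes, 21 fell and none rose, at a median of -1.30. The summed level was 5764, 6354, 4919 and 5269 CPM in the eGFP libraries and 2022, 2384, 2009.6 and 2241 CPM in the LRG1 libraries. Replicate 2 was the highest in both groups, for 15 and 18 of the 21 genes that fell, unlike the GTPase genes. Fcgr4, an activating Fc receptor, was at 92.3, 62.5, 52.7 and 79.7 CPM against 4.23, 5.16, 3.82 and 6.12 CPM. It fell more than any other gene of the list (log2FC -3.89, SE 0.27, adjusted p = 1.1e-07), followed by Slamf8 at log2FC -3.22 (SE 0.36). Lineage genes fell by less, with Adgre1, which encodes F4/80, at log2FC -1.68 (SE 0.21), Cd68 at log2FC -1.37 (SE 0.31) and Csf1r, the growth factor receptor of macrophages, at log2FC -0.73 (SE 0.09). Mertk, an efferocytosis receptor, was at log2FC -0.24 (SE 0.15) and did not pass, nor did Nos2 (log2FC 0.29, SE 0.34).

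Genes of lipid-associated macrophages, which gather around dying adipocytes, had a median of -0.92. Of 23, 8 were called lower and 2 higher. In 17 of them all 4 LRG1 libraries lay below all 4 eGFP libraries, against 19.4% of all genes tested. Ctss, a lysosomal protease, was at 1086 to 1347 CPM against 255 to 348 CPM (log2FC -2.07, SE 0.30, adjusted p = 1.3e-04). Itgax, which encodes CD11c, was at log2FC -1.42 (SE 0.35), Trem2, the lipid receptor, at log2FC -1.48 (SE 0.32), and Dcstamp and Ocstamp, genes of macrophage fusion, at log2FC -2.06 (SE 0.44) and log2FC -2.04 (SE 0.44). The elastase gene Mmp12 was at 935, 935, 709.6 and 514 CPM in the eGFP libraries and 142, 183, 147 and 182 CPM in the LRG1 libraries. Its groups did not overlap, yet it did not pass (log2FC -2.24, SE 0.62, adjusted p = 0.0116). Gpnmb (log2FC -1.74, adjusted p = 0.0148) and Lipa (log2FC -1.28, adjusted p = 0.0167) likewise had groups apart and did not pass. All 3 passed in a fit of only the 8 week-7 libraries, which takes no part of its spread from week 10. There Mmp12 had an adjusted p of 1.2e-06, Gpnmb 6.3e-06 and Lipa 5.2e-06. With DESeq2, which the study used, all 3 passed as well, at adjusted p of 2.2e-04, 0.00276 and 0.00199. They also passed by library totals and without the filter on low counts. The 2 genes that rose, Lpl (log2FC 0.55, SE 0.12) and Acp5 (log2FC 0.47, SE 0.08), are also expressed outside macrophages, Lpl by adipocytes. Without LRG1 replicate 3, 1 fell and 1 rose. The count that fell was 3 without eGFP replicate 2 and 5 without LRG1 replicate 1 or 4, and 16 when scaled by library totals, where neither rise was called.

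Resident and alternatively activated macrophage genes did not fall as a group. Of 20, 3 fell and 4 rose, at a median of 0.16. Scaled by library totals the median was just below 0 and none rose. The count that rose was also 0 without eGFP replicate 1, 1 without eGFP replicate 3 or LRG1 replicate 4, and 2 without eGFP replicate 4 or LRG1 replicate 3. Cd209d, a lectin of resident macrophages, was at 2.79, 4.36, 3.77 and 3.54 CPM in the eGFP libraries and 8.64, 10.7, 14.2 and 10.8 CPM in the LRG1 libraries. All LRG1 libraries were above all eGFP libraries (log2FC 1.61, SE 0.37, adjusted p = 0.00405), though without eGFP replicate 1, 3 or 4 or LRG1 replicate 3 the adjusted p was 0.0110 to 0.0167. Cbr2 (log2FC 0.66, SE 0.15) and Gas6 (log2FC 0.60, SE 0.13) rose as well. Mrc1, which encodes CD206, fell (log2FC -0.62, SE 0.13), as did the lectin gene Clec10a (log2FC -1.16, SE 0.22). The scavenger receptor genes Cd163 (log2FC 0.30, SE 0.16) and Stab1 (log2FC 0.03, SE 0.18), Lyve1 (log2FC 0.51, SE 0.25), Timd4 (log2FC -0.32, SE 0.37) and Arg1 (log2FC -1.57, SE 0.46) did not pass. Arg1 did pass with DESeq2 (adjusted p = 0.00857) and in the fit of week 7 alone (0.00751). It also passed by library totals (0.00870) and without the filter on low counts (0.00900). Dendritic cell genes were likewise divided, with 7 of 16 lower and 1 higher. Those of the cross-presenting subset, Xcr1, Clec9a and Batf3, were at log2FC -1.74 (SE 0.23), log2FC -0.85 (SE 0.20) and log2FC -1.47 (SE 0.25) and fell. Cd209a, which marks monocyte-derived and type 2 dendritic cells, was at 1.01, 1.86, 1.43 and 1.53 CPM against 3.71, 5.03, 5.07 and 3.10 CPM and rose (log2FC 1.53, SE 0.26, adjusted p = 4.2e-04).

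Of 18 B and plasma cell genes, 3 fell: Prdm1 (log2FC -1.66, SE 0.18), Sdc1 (log2FC -1.52, SE 0.28) and Cd22 (log2FC -1.46, SE 0.39), of which Sdc1 and Prdm1 are also expressed by other cells. Of all genes tested 10.7% were lower. Cd79a, a chain of the B cell receptor, was at 0.466 to 2.13 CPM against 0.382 to 1.22 CPM (log2FC -0.74, SE 0.68) and did not pass. Ighg1, the constant gene of class-switched IgG1, was at 18, 41.8, 12.9 and 52.9 CPM in the eGFP libraries. It was counted in only 1 LRG1 library, replicate 2, at 0.135 CPM (adjusted p = 1.7e-05). Ighg2c was at 11.6, 24.1, 5.01 and 20.5 CPM against 0.127, 0.354, 0.0325 and 0.103 CPM (log2FC -6.62, SE 1.42, adjusted p = 0.00255), and LRG1 replicate 2 was again the highest of its group. Without LRG1 replicate 1, 3 or 4 its adjusted p was 0.010 to 0.0116. Igha was at log2FC -2.76 (SE 0.64), and without LRG1 replicate 3 or 4 only 1 of the 3 was called. With limma-voom none of these falls passed, at adjusted p of 0.0461 for Ighg1, 0.0695 for Ighg2c and 0.0432 for Igha. Ighm, the constant gene of unswitched IgM, was at 323, 346, 383 and 367 CPM in the eGFP libraries and at 655, 723, 770.2 and 602 CPM in the LRG1 libraries. It rose without overlap (log2FC 0.95, SE 0.16, adjusted p = 4.0e-04). Light chain and J chain genes, Igkc (log2FC -1.36, SE 0.58) and Jchain (log2FC -1.06, SE 0.53), did not pass. Of 122 immunoglobulin variable segments 4 (3.28%) fell and none rose, or 2 without eGFP replicate 2 or 4 or LRG1 replicate 1, 3 or 4. Their median was -1.92. In 18 segments all LRG1 libraries lay below all eGFP libraries, and in none above, against 19.4% and 18.6% of all genes tested.

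Mast cell genes were lower in sum but not called singly. None of 13 passed, at a median of -0.87, and the summed level was 104, 80.9, 70.5 and 62.1 CPM against 53.1, 54.6, 53.3 and 47.1 CPM, without overlap. Of 15 granulocyte genes 1 fell, the growth factor receptor Csf3r (log2FC -0.99, SE 0.22), whose call was lost without eGFP replicate 1, 2 or 4 or LRG1 replicate 1, 3 or 4, and S100a8 (log2FC 0.85, SE 0.49) and S100a9 (log2FC -1.08, SE 0.86) did not pass. Innate sensors fell broadly. Of 21 Toll-like receptors and adaptors 16 fell, among them Tlr8, an endosomal RNA sensor, at log2FC -1.72 (SE 0.21), Tlr13 at log2FC -1.41 (SE 0.32) and the adaptor Myd88 at log2FC -0.81 (SE 0.12). Tlr5, the flagellin receptor, rose, from 2.55 to 5.0 CPM to 7.73 to 11.4 CPM (log2FC 1.17, SE 0.24, adjusted p = 0.00209), though not by library totals. Tlr4, the receptor of lipopolysaccharide, was at log2FC -0.50 (adjusted p = 0.0147) and did not pass. It did in the fit of week 7 alone (adjusted p = 2.0e-04), with DESeq2 (0.00595) and by library totals (8.8e-04). Of 20 inflammasome and lytic death genes 15 fell, with Casp1 at 50.7 to 71.1 CPM against 15.8 to 18 CPM (log2FC -1.82, SE 0.22), Aim2, a DNA sensor, at log2FC -1.57 (SE 0.22), and Ripk3 at log2FC -1.03 (SE 0.24). Ninj1, which ruptures the membrane of dying cells, was at log2FC -0.24 (SE 0.19) and Gsdme at log2FC 0.28 (SE 0.11), and neither passed.

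Of 21 genes of mitochondrial apoptosis 12 fell and none rose. Cycs, which encodes cytochrome c, was at 61.3, 62.5, 60 and 61.5 CPM in the eGFP libraries and 63.7, 65.7, 78.7 and 64.7 CPM in the LRG1 libraries. The LRG1 values lay just above the eGFP values, and the difference did not pass (log2FC 0.15, SE 0.10, adjusted p = 0.246). Apaf1, which acts after its release, was at log2FC -0.86 (SE 0.15), and the pore former Bak1 at log2FC -1.01 (SE 0.17). Survival genes of leukocytes fell too, with Bcl2a1b at log2FC -1.58 (SE 0.28), one of several near-identical copies, and Mcl1 at log2FC -0.73 (SE 0.16). Of 31 cell cycle genes 25 fell, such as Mki67 (log2FC -1.23, SE 0.19), Top2a (log2FC -1.29, SE 0.18) and Aurkb (log2FC -1.48, SE 0.24), and eGFP replicate 2 was the highest of its group for 22 of them. The G1 cyclin genes Ccne1 (log2FC -0.01, SE 0.14) and Ccne2 (log2FC -0.06, SE 0.09) did not pass. Ribosomal protein genes were shifted slightly and evenly. Of 82 tested, 57 fell and none rose (median -0.41), and the count was 52 with upper quartile scaling and 75 with library totals. It was 29, 34 and 36 without eGFP replicate 2, LRG1 replicate 1 and LRG1 replicate 3.

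**Figure D3:**
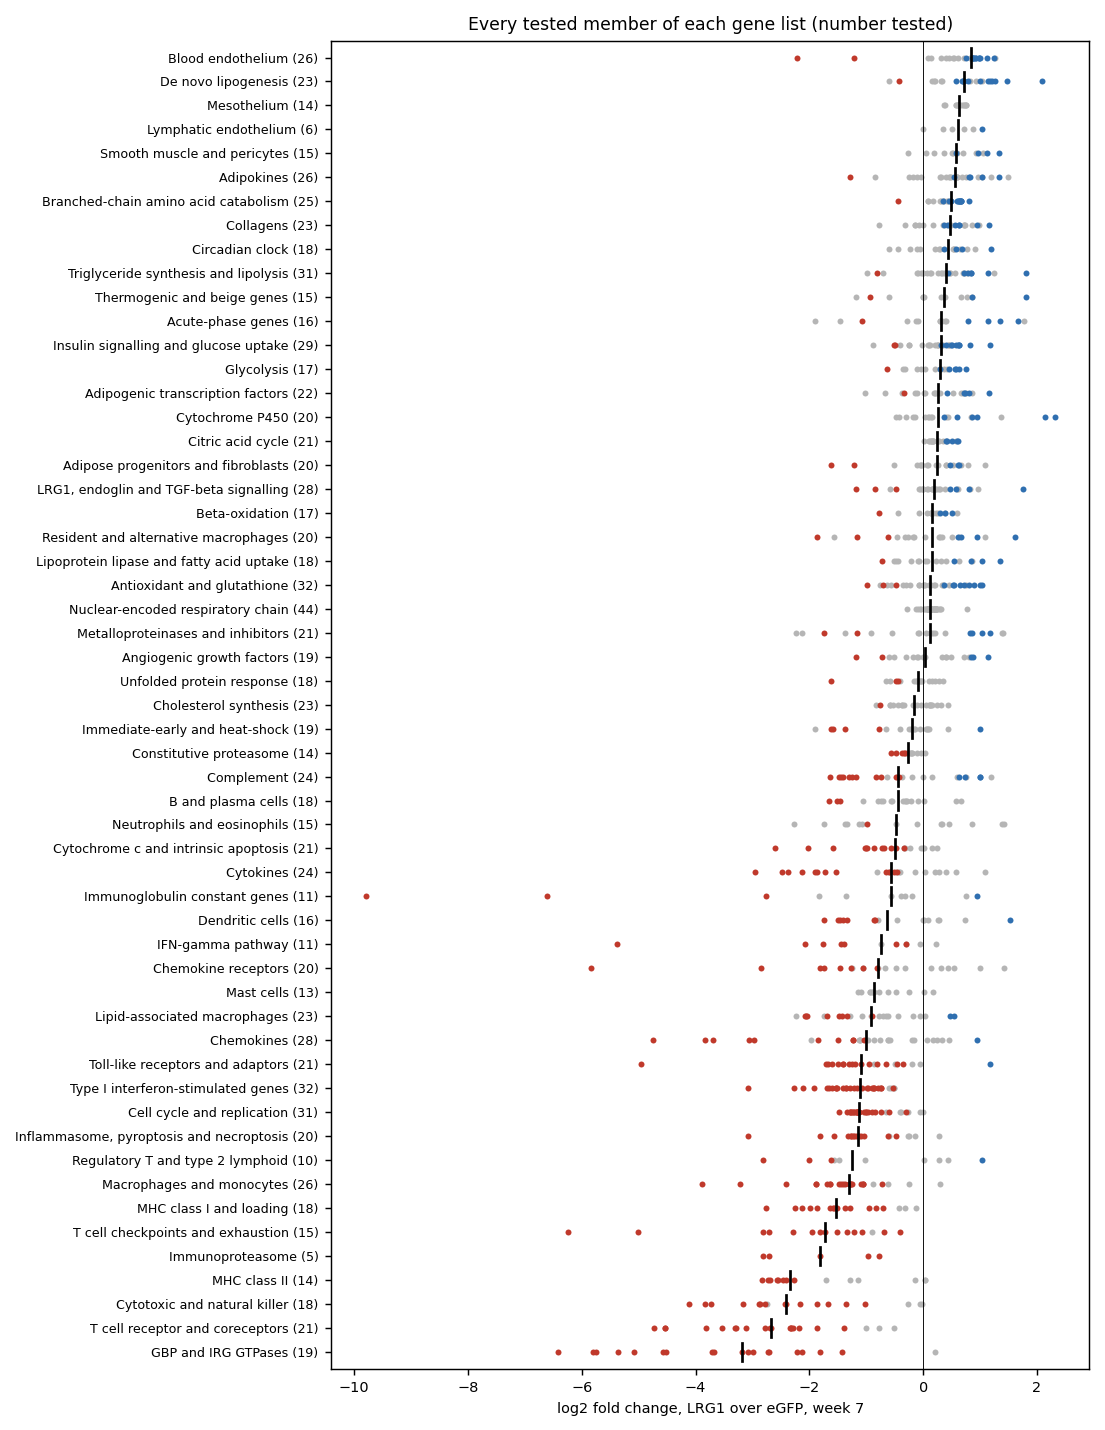
Log2 fold changes of LRG1 over eGFP at week 7 for every tested member of the gene lists, ordered by list median (black bar), with members called lower in red, called higher in blue and not called in grey. Medians run from 0.84 for blood endothelium to -3.19 for the GTPases, and the largest single fall is in the immunoglobulin gene Ighg1.

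Complement and acute-phase genes changed in both directions. Of 24 complement genes 11 fell and 4 rose. The genes that fell included the C1q chains of macrophages (C1qb, log2FC -1.49, SE 0.14) and the receptors C5ar1 (log2FC -1.25, SE 0.26) and C3ar1 (log2FC -1.19, SE 0.29). Those that rose were the surface inhibitors Cd55 (log2FC 0.63, SE 0.10) and Cd59a (log2FC 0.74, SE 0.17), the lectin pathway protease Masp1 (log2FC 1.00, SE 0.24) and C6 (log2FC 1.00, SE 0.21). C3 itself, at 839.6 to 1237 CPM against 872 to 1243 CPM, did not pass (log2FC 0.16, SE 0.18). Without eGFP replicate 1 or 2 or LRG1 replicate 1, 2 or 3, 7 complement genes fell, and without eGFP replicate 1 only 2 rose, as by library totals. Of 16 acute-phase genes 4 rose and 1 fell. Lbp, which carries lipopolysaccharide to CD14, was at 146, 159, 217 and 194 CPM in the eGFP libraries and 436, 454, 459 and 482 CPM in the LRG1 libraries. It rose without overlap (log2FC 1.36, SE 0.23, adjusted p = 4.2e-04). Orm1 and Orm2, near-identical genes of orosomucoid, a carrier protein with anti-inflammatory activity, rose at log2FC 1.13 (SE 0.23) and log2FC 1.66 (SE 0.23). Hp, which encodes the haemoglobin-binding haptoglobin, was at 1397 to 1843 CPM against 2723 to 3048 CPM (log2FC 0.80, SE 0.18, adjusted p = 0.00329, or 0.0146 without eGFP replicate 1 and 0.0108 without LRG1 replicate 4). Ptx3, a pentraxin induced by interleukin-1 and TNF, fell (log2FC -1.07, SE 0.22), while Saa3 (log2FC 0.29, SE 0.39) and Lcn2 (log2FC 0.34, SE 0.36) did not pass. Scaled by library totals, 3 acute-phase genes were still higher, and without LRG1 replicate 2 a further 1 fell.

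Few of the genes through which LRG1 is known to act were called. Of 28 genes of this list, Lrg1 included, 4 rose and 3 fell. Over all genes tested, 7.37% were higher and 10.7% lower, so these counts do not set the list apart. The count that rose was 2 without eGFP replicate 1 or LRG1 replicate 1. By library totals it was 1, Lrg1 itself, and 1 fell without LRG1 replicate 3. The coreceptor Eng was at 30.1 to 35.9 CPM against 31.5 to 44.1 CPM (log2FC 0.09, SE 0.10, adjusted p = 0.511), with overlapping groups. Acvrl1, the receptor ALK1, was at 36.5, 39.9, 31.3 and 30.4 CPM against 26.3, 21.9, 19.6 and 24.2 CPM. Its groups were apart, but it did not pass (log2FC -0.59, SE 0.17, adjusted p = 0.0161). Acvrl1 did pass in the fit of week 7 alone (adjusted p = 6.9e-04), with DESeq2 (0.00583) and by library totals (0.00232). The ligand Tgfb1 and its receptor Tgfbr1 fell (log2FC -0.85, SE 0.18 and log2FC -0.47, SE 0.10), whereas Tgfbr2 (log2FC 0.20, SE 0.09) and the signal carriers Smad1 (log2FC -0.01, SE 0.09), Smad3 (log2FC -0.08, SE 0.10) and Smad5 (log2FC 0.15, SE 0.06) did not pass. Of the targets, Id2 fell (log2FC -1.19, SE 0.12), while Id1 (log2FC 0.21, SE 0.28) and Id3 (log2FC -0.03, SE 0.22) did not pass. Bmpr2 (log2FC 0.47, SE 0.10), Tgfbr3 (log2FC 0.58, SE 0.12) and Bmp6 (log2FC 0.80, SE 0.18) rose.

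Some endothelial and mural genes rose. Of 26 blood endothelial genes 11 rose and 2 fell, at a median of 0.84. Ptprb, a phosphatase of endothelial junctions, was at 76.9, 62.5, 75.0 and 75.0 CPM in the eGFP libraries and 235, 142, 135 and 121 CPM in the LRG1 libraries. LRG1 replicate 1 was the highest and the groups did not overlap (log2FC 1.13, SE 0.27, adjusted p = 0.00522), but the adjusted p was 0.0129 to 0.0218 without any one eGFP library or LRG1 replicate 1. Pecam1, Cdh5 and Flt1 were at log2FC 0.87 (SE 0.21), log2FC 0.93 (SE 0.23) and log2FC 1.00 (SE 0.24). The 2 genes that fell were those that inflamed endothelium and leukocytes use for adhesion, Vcam1 at 151 to 206 CPM against 32.1 to 44.0 CPM (log2FC -2.21, SE 0.20, adjusted p = 1.4e-06) and Icam1 (log2FC -1.22, SE 0.14). The count of endothelial genes that rose was 3 without any one of eGFP replicates 2, 3 and 4 or LRG1 replicate 1, 6 without LRG1 replicate 2, 7 without eGFP replicate 1, and 1 when scaled by library totals. Of 19 angiogenic factors, Fgf1 (log2FC 0.84, SE 0.20), Fgf2 (log2FC 0.88, SE 0.23) and the apelin receptor Aplnr (log2FC 1.15, SE 0.28) rose, Angpt1 (log2FC -1.18, SE 0.22) and Pdgfb (log2FC -0.73, SE 0.15) fell, and Vegfa (log2FC 0.72, SE 0.25) did not pass, except in the fit of week 7 alone (adjusted p = 3.0e-05). Of these rises at most 1 was called without any one library, and none by library totals. Of 15 mural genes 4 rose, with the pericyte gene Rgs5 at 101, 77.7, 120.1 and 107 CPM against 249.7, 259.6, 246 and 261 CPM. The LRG1 values were tightly spaced and above all eGFP values (log2FC 1.32, SE 0.33, adjusted p = 0.00644), with an adjusted p of 0.0115 to 0.0243 without any one library. The count of mural genes that rose was 2 without any one library other than eGFP replicate 3, and 1 by library totals.

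Of 23 collagen genes 7 rose and none fell: Col4a1 (log2FC 0.56, SE 0.12) and Col4a2 (log2FC 0.63, SE 0.15) of basement membrane, Col5a3 (log2FC 0.62, SE 0.16), and 4 type VI chains led by Col6a5 (log2FC 1.15, SE 0.25). The fibrillar chains Col1a1 (log2FC -0.14, SE 0.21), Col1a2 (log2FC -0.32, SE 0.16) and Col3a1 (log2FC -0.15, SE 0.18) did not pass. Only 1 collagen gene was higher without LRG1 replicate 3 or when scaled by library totals, and 2 to 4 without eGFP replicates 1, 2 or 4 or LRG1 replicates 1 or 4. Of the proteases and inhibitors, Adam8 (log2FC -1.75, SE 0.42) and Timp1 (log2FC -1.16, SE 0.30) fell, and Timp3 (log2FC 1.04, SE 0.24) and Adamts5 (log2FC 1.17, SE 0.21) rose. Of 21 such genes 4 rose, or 2 by library totals, where Timp3 did not pass. Timp3 was also not called without any one library other than eGFP replicate 3 and LRG1 replicate 4. Neither fall was called without any one library other than eGFP replicate 4, and 5 genes of the list fell by library totals. Mmp13 was at 4.54, 4.60, 3.57 and 3.03 CPM against 1.10, 0.776, 0.812 and 0.896 CPM and, although the groups were apart, did not pass (log2FC -2.13, SE 0.59, adjusted p = 0.0120). It passed in the fit of week 7 alone (adjusted p = 3.4e-06) and with DESeq2, which the study used (0.00245). Mmp13 also passed by library totals (0.00540) and without the filter on low counts (0.00602). None of 14 mesothelial genes passed (median 0.62). Their summed level was 161, 194, 238 and 251 CPM in the eGFP libraries and 275, 280.0, 407 and 380.4 CPM in the LRG1 libraries, without overlap. Among 20 progenitor and fibroblast genes, Ly6a, an interferon-induced surface protein, fell (log2FC -1.63, SE 0.21), while Cd34 (log2FC 0.62, SE 0.14) and Dcn (log2FC 0.48, SE 0.11) rose and Pdgfra (log2FC 0.26, SE 0.08) did not pass. Neither Cd34 nor Dcn was called by library totals (adjusted p = 0.0366 and 0.0692) or without eGFP replicate 1 or 3. Of these 20 genes 3 rose, or 1 by library totals.

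Of 23 genes for making fatty acids from glucose, 12 rose and 1 fell, with 7 higher when scaled by library totals and 7 without any one of eGFP replicates 2 and 4 or LRG1 replicates 2 and 3. Elovl6, which elongates palmitate, was at 70.2, 77.2, 89.2 and 79.0 CPM in the eGFP libraries and 251, 434, 374 and 289 CPM in the LRG1 libraries. Every LRG1 library was more than 2-fold above every eGFP library (log2FC 2.09, SE 0.41, adjusted p = 0.00133). Fasn, fatty acid synthase, was at 885, 838, 1078 and 1177 CPM against 3232, 2192, 3483 and 2148 CPM. LRG1 replicates 1 and 3 were highest (log2FC 1.47, SE 0.29, adjusted p = 0.00145). Scd1, the desaturase that makes oleate, was at 5995 to 7792 CPM against 11680.4 to 15816 CPM (log2FC 1.00, SE 0.19), and Thrsp, which promotes lipogenesis, at log2FC 1.27 (SE 0.25). Me1, which supplies NADPH, and Acss2, which makes acetyl-CoA from acetate, were at log2FC 0.79 (SE 0.20) and log2FC 0.71 (SE 0.17). The summed level of the list was 10232, 10214, 9507 and 11644 CPM against 20662, 22725, 23774 and 17474 CPM. The regulators Srebf1 (log2FC 0.19, SE 0.11) and Mlxipl, which encodes ChREBP (log2FC 0.71, SE 0.19), did not pass, nor did Acly (log2FC 0.92, adjusted p = 0.010), which makes cytosolic acetyl-CoA. In the fit of week 7 alone Mlxipl (adjusted p = 2.2e-04) and Acly (3.3e-04) passed, as they did with DESeq2 (0.00199 and 0.00109). Mlxipl and Acly also passed with upper quartile scaling and without the filter on low counts, but not by library totals. Fads1, of polyunsaturated fatty acids, fell (log2FC -0.43, SE 0.10), but not without eGFP replicate 2 or 3 or LRG1 replicate 2, 3 or 4. Of 23 cholesterol synthesis genes none rose and 1 fell, a call that was lost without any one library (list median -0.16).

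Genes of triglyceride storage changed in part. Of 31 genes 7 rose and 1 fell. The lipid droplet genes Cidec, at 1464 to 1691 CPM against 2319.7 to 3145 CPM (log2FC 0.78, SE 0.16, adjusted p = 0.00199), and Cidea (log2FC 1.80, SE 0.38) rose, as did the acyltransferase gene Dgat2 (log2FC 0.83, SE 0.18). Lipases and their regulators, Pnpla2 (log2FC 0.34, SE 0.12), Lipe (log2FC 0.70, SE 0.23) and Adrb3 (log2FC 0.36, SE 0.30), did not pass, although Lipe (adjusted p = 2.5e-05) and Pnpla2 (0.00239) did in the fit of week 7 alone. Lipe also passed with DESeq2 (adjusted p = 0.00878). The count that rose was 4 without eGFP replicate 1 or LRG1 replicate 3, and library totals gave 2 higher and 2 lower. Of 18 lipid uptake genes 4 rose, or 3 by library totals and 2 without LRG1 replicate 3. They included Lpl (log2FC 0.55, SE 0.12), Vldlr, at 117, 125, 149 and 133 CPM against 262, 257, 289.6 and 265 CPM (log2FC 1.04, SE 0.11, adjusted p = 7.0e-06), without overlap, and Angptl8, an insulin-induced regulator of lipoprotein lipase (log2FC 1.34, SE 0.31). Lpl was not called by library totals (adjusted p = 0.0269), nor Angptl8 without eGFP replicate 1 or 2 or LRG1 replicate 3. The fatty acid transporter Cd36 was at log2FC 0.03 (SE 0.14) and did not pass.

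Of 29 genes of insulin signalling 10 rose and 2 fell. Slc2a4, which encodes the insulin-responsive transporter GLUT4, was at 30.7, 33.6, 34.3 and 35.2 CPM in the eGFP libraries and 63.0, 70.7, 93.4 and 73.8 CPM in the LRG1 libraries. It rose without overlap (log2FC 1.17, SE 0.21, adjusted p = 7.9e-04). Hexokinase 2 (Hk2), Foxo1 and the regulatory subunit gene Pik3r1 were at log2FC 0.64 (SE 0.15), log2FC 0.82 (SE 0.19) and log2FC 0.48 (SE 0.11). Irs1, the substrate of the insulin receptor, was at 16.9, 15.2, 16.3 and 15.8 CPM against 22.9, 20.7, 19 and 18.2 CPM. All LRG1 values were above all eGFP values, but the difference did not pass (log2FC 0.33, SE 0.15, adjusted p = 0.105; 0.00879 in the fit of week 7 alone), nor did that of Irs2 (log2FC 0.20, SE 0.19) or Insr (log2FC 0.46, SE 0.14). Akt1 (log2FC -0.50, SE 0.13) and Tbc1d1 (log2FC -0.52, SE 0.08) fell. The count that rose was 5 without eGFP replicate 2 or LRG1 replicate 3, 6 without eGFP replicate 1 or LRG1 replicate 1, and 1 by library totals, and only 1 of these falls was called without any one library. Of 26 adipokines 5 rose, such as C1qtnf9 (log2FC 1.33, SE 0.29), Nrg4 (log2FC 0.83, SE 0.19) and Rbp4 (log2FC 1.03, SE 0.23), or 1 without eGFP replicate 1 or 2 or LRG1 replicate 3, 3 without LRG1 replicate 4 and 1 by library totals. Adiponectin (Adipoq, log2FC 0.97, adjusted p = 0.0146), leptin (Lep, log2FC 0.69, adjusted p = 0.0547) and resistin (Retn, log2FC 0.59, adjusted p = 0.302) did not pass, and Metrnl, which macrophages also make, fell (log2FC -1.29, SE 0.19). In the fit of week 7 alone Adipoq (adjusted p = 2.9e-05) and Lep (2.2e-04) passed, and Adipoq did with DESeq2 as well (0.00208). Pparg, the master factor of adipocytes, was at log2FC 0.29 (SE 0.12) and did not pass, whereas Klf15 (log2FC 1.16, SE 0.30) and Ebf2 (log2FC 0.71, SE 0.15) rose, among 5 of 22 adipogenic factors, or 2 to 4 without any one library and none by library totals.

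Branched-chain amino acid catabolism, which differentiating adipocytes use to feed lipogenesis, had 12 of 25 genes higher and 1 lower (median 0.48). Aldh6a1, of valine breakdown, was at 185, 162, 178 and 187 CPM in the eGFP libraries and 280.2, 302, 345 and 319.7 CPM in the LRG1 libraries. No LRG1 library overlapped with the eGFP range (log2FC 0.81, SE 0.19, adjusted p = 0.00449), and the adjusted p was 0.0106 to 0.0162 without any one library other than LRG1 replicates 1 and 2. The rises were spread over leucine (Mccc1, log2FC 0.67, SE 0.16), propionate (Mut, log2FC 0.66, SE 0.15) and valine steps (Hibch, log2FC 0.63, SE 0.13), while the committed dehydrogenase genes Bckdha (log2FC 0.48, SE 0.14) and Bckdhb (log2FC 0.37, SE 0.12) did not pass. Both passed in the fit of week 7 alone (adjusted p = 4.2e-04 and 6.9e-04). Bckdha also passed with DESeq2 (0.00592) and upper quartile scaling (0.00967). LRG1 replicate 3 was the highest of its group for 10 of the 12 genes that rose, and 3 rose without it, while library totals gave 1. Without any one of eGFP replicates 1 and 2 or LRG1 replicate 4 the count was 4, and without eGFP replicate 3 or 4 it was 7. Both subunits of pyruvate dehydrogenase rose, Pdha1 (log2FC 0.59, SE 0.13) and Pdhb (log2FC 0.61, SE 0.15). Neither was called by library totals (adjusted p = 0.0203 and 0.0196) or without LRG1 replicate 3, nor was Pdhb without eGFP replicate 1, 2 or 3 or LRG1 replicate 1 or 2. Of 21 genes of the citric acid cycle and its entry 5 rose, or 3 without LRG1 replicate 3 and none by library totals. None of 44 nuclear genes of the respiratory chain passed, at a median of 0.12, or -0.04 by library totals. Of 12 proteins encoded by mitochondrial DNA, 6 rose, or 5 by library totals, and none fell, among them mt-Nd4 at 730.4, 700.2, 764 and 819 CPM against 1704, 1386, 1342 and 1457 CPM (log2FC 0.97, SE 0.11, adjusted p = 9.9e-06), where mitochondrial ribosomal RNA was also higher. Of 17 beta-oxidation genes 3 rose, or none without eGFP replicate 4 or LRG1 replicate 2 or 3, 1 without eGFP replicate 1 or 3 or LRG1 replicate 4 and none by library totals, and Cpt1a, which admits fatty acids to mitochondria, fell (log2FC -0.78, SE 0.14). Ucp1 was at 5.65 to 7.76 CPM against 1.38 to 4.08 CPM and did not pass (log2FC -1.18, SE 0.59).

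Of 20 cytochrome P450 genes 6 rose in the LRG1 group and none fell, or 2 rose without eGFP replicate 1 or by library totals. Cyp2e1, a cytochrome P450 of fat and liver, was at 12.6, 20.4, 8.13 and 14.7 CPM in the eGFP libraries and 56.2, 93.5, 77.4 and 50.9 CPM in the LRG1 libraries. Its lowest LRG1 library was above its highest eGFP library (log2FC 2.32, SE 0.43, adjusted p = 9.7e-04). Glutathione transferase genes Gsta3 (log2FC 1.03, SE 0.17), Gsta4 (log2FC 0.99, SE 0.16) and Gstz1 (log2FC 0.90, SE 0.21) rose, while the peroxide and thiol genes Gpx1 (log2FC -0.70, SE 0.15) and Txn1 (log2FC -0.99, SE 0.25) and their regulator Nfe2l2 (log2FC -0.47, SE 0.11) fell. Of 32 such genes 9 rose and 3 fell, or 5 and 1 without eGFP replicate 1 or LRG1 replicate 3, 1 of the falls without any other library, and 3 rises by library totals. Of 18 unfolded protein response genes none rose and 3 fell, led by Atf3, a stress-induced repressor, at log2FC -1.62 (SE 0.40), or 1 without any one library other than eGFP replicate 4 and LRG1 replicate 1. Over all genes tested 10.7% were lower, so this count does not set the list apart. The chaperone gene Hspa5 (log2FC -0.02, SE 0.14) and Ddit3 (log2FC -0.06, SE 0.13) did not pass. The immediate-early genes Fos (log2FC -1.37, SE 0.26) and Egr2 (log2FC -1.58, SE 0.39) fell and Egr1 (log2FC 0.09, SE 0.21) did not pass. Of 18 clock genes 4 rose, with the output factor Hlf at log2FC 1.19 (SE 0.31) and Per2 at log2FC 0.58 (SE 0.15), or 1 or 2 without any one library and none by library totals.

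**Figure D4:**
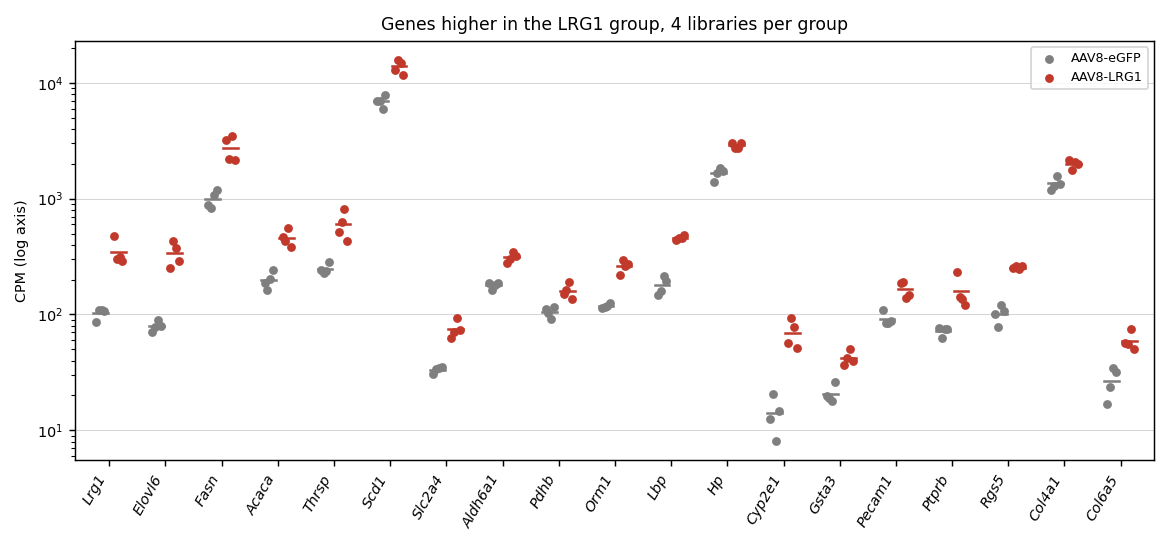
CPM on a log axis in each of the 4 eGFP libraries (grey) and 4 LRG1 libraries (red) for genes higher in the LRG1 group, with a line at the group mean. The LRG1 libraries lie above all eGFP libraries in each gene, by more in Elovl6 and Cyp2e1 than in Pdhb or Col4a1.

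Outside the lists, the largest rises by the naming rule were in weakly expressed genes. Slc15a5, a member of the peptide transporter family, was at 0.95, 1.72, 2.01 and 1.33 CPM in the eGFP libraries and 8.77, 12.2, 12.7 and 12.3 CPM in the LRG1 libraries. It rose to several times the eGFP level in each mouse (log2FC 2.93, SE 0.46, adjusted p = 2.8e-04). Colq, the collagen tail of acetylcholinesterase, was at 0.317 to 0.511 CPM against 2.08 to 3.22 CPM (log2FC 2.75, SE 0.33, adjusted p = 3.0e-05). Tfr2, a receptor of transferrin, was at 1.04 to 2.27 CPM against 7.21 to 10.5 CPM (log2FC 2.30, SE 0.37, adjusted p = 3.4e-04). Hfe, a regulator of iron uptake, was at 84.3, 104, 107 and 95.1 CPM against 177, 200.1, 203 and 208 CPM and had the next smallest p of the rises (log2FC 1.01, SE 0.10, adjusted p = 4.9e-06) after Aox1, an aldehyde oxidase, at log2FC 0.86 (SE 0.08, adjusted p = 3.0e-06). The largest falls included Serpina3f, a protease inhibitor, at 36.5, 22.2, 13.8 and 27.8 CPM against 0.764, 2.21, 0.357 and 0.448 CPM (log2FC -4.73, SE 0.49, adjusted p = 5.5e-06), with no overlap. They also included Glp1r, the receptor of the incretin GLP-1, at 8.20, 5.84, 3.78 and 5.32 CPM against 0.223, 0.118, 0.195 and 0.190 CPM. Glp1r was low in fat but was detected in every library, and its groups were far apart (log2FC -4.98, SE 0.48, adjusted p = 3.2e-06). By CPM, the housekeeping gene Actb (5207 to 3460.4 CPM, log2FC -0.59, SE 0.11) and the lysosomal gene Psap (log2FC -1.19, SE 0.28) were among the largest losses. Red cell genes were not called (5 tested, summed level 55.4 to 153 CPM against 124 to 282 CPM). Of pancreatic genes only Cela1 was tested, and it rose (log2FC 0.93, SE 0.20), but not without eGFP replicate 1 or by library totals.

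Whether these differences had changed 3 weeks later was tested by the difference between the effect at week 7 and that at week 10, in other mice. A gene that did not pass was not thereby shown to keep its effect. Gbp10, for example, had a difference of -3.02 (SE 0.71) and did not pass (adjusted p = 0.0572). Of 20822 genes 68 (0.327%) passed, 64 with a lower and 4 with a higher log2FC at week 7 than at week 10. The 68 became 40 without eGFP replicate 4 or LRG1 replicate 1, 41 without LRG1 replicate 3 and 44 without LRG1 replicate 4, and 274 with DESeq2 and 122 by library totals. Of the genes listed above, 9 GTPase, 8 class II, 8 class I and 4 immunoproteasome genes were among the 64. H2-DMb1 had group means of 51.3 and 7.70 CPM (eGFP and LRG1) at week 7 and 13.4 and 10.2 CPM at week 10. Its log2 fold change was -2.74 (SE 0.17) at week 7 and -0.40 (SE 0.17) at week 10, a difference of -2.33 (SE 0.24, adjusted p = 3.6e-04). Ciita had means of 56.2 and 8.72 CPM at week 7 and 16.1 and 10.7 CPM at week 10. In both genes the eGFP group of week 7 stood above the other 3 groups, and the difference between weeks was -2.10 (SE 0.23, adjusted p = 4.7e-04) for Ciita. For Psmb8 the difference was -1.70 (SE 0.19, adjusted p = 4.7e-04), and for Pdcd1 -3.70 (SE 0.55, adjusted p = 0.00279). The 4 genes in the other direction included Ptgfr, the prostaglandin F receptor, with a log2 fold change of 1.36 (SE 0.17) at week 7 and -0.33 (SE 0.17) at week 10, and Mmp11, at log2FC 0.86 (SE 0.16) and -0.69 (SE 0.16). For Lrg1 itself the difference was -0.37 (SE 0.27, adjusted p = 0.805) and did not pass.

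**Figure D5:**
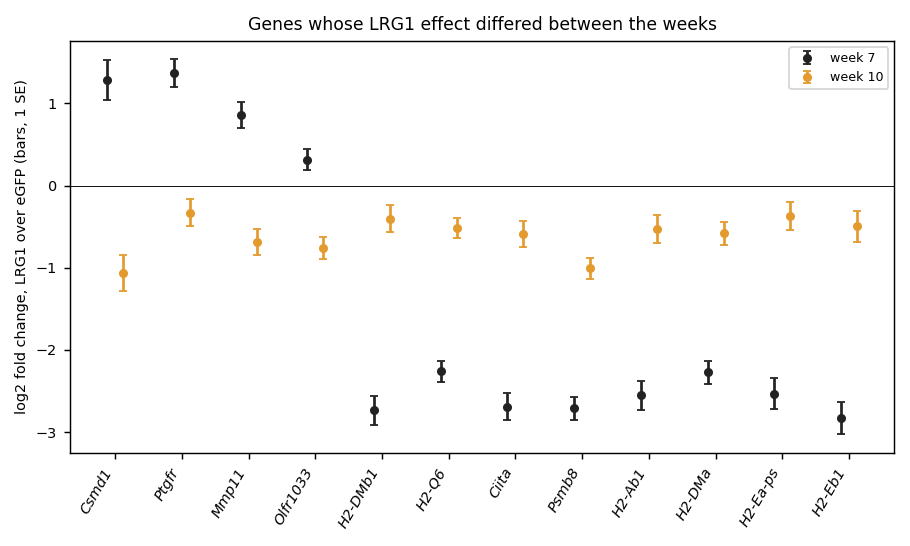
Log2 fold change of LRG1 over eGFP at week 7 (black) and week 10 (orange), with bars of 1 SE, for the genes whose effect differed most clearly between the weeks in each direction. The MHC, Ciita and Psmb8 values lie between -2.83 and -2.26 at week 7 and between -1.01 and -0.37 at week 10.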

How the data were processed

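RNA-seq counts of epididymal fat from 16 db/db mice were used, 8 of them at week 7. Per the study's methods, the authors trimmed reads with Cutadapt, aligned them with STAR to mm10 (GRCm38) and counted reads per gene with featureCounts; versions and strand settings are not given in the sources used here, so close paralogs and overlapping genes are uncertain. The deposited table holds raw counts of 55573 Ensembl genes, and 0 of its columns were left unused. Symbols were matched for 55394 genes, and 179 were not matched.

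Groups were taken from the sample labels. Counts were scaled by TMM and tested in edgeR 4.0.16 (R 4.3.3) by the quasi-likelihood test in a joint fit of the 16 libraries and 4 groups, after edgeR's expression filter. The threshold was an adjusted p (Benjamini-Hochberg) of 0.01, and fold changes are log2 with SE from the F statistic. The difference between weeks was a contrast of the same fit. RPKM used the annotated exon length. The steps were tested on simulated data. Alternatives were DESeq2 1.42.0, limma 3.58.1 (voom), other scalings and filters, a replicate block and each library left out. The precision rests on 4 mice per group and on totals of at least 58429048 counts. The p-values measure the spread between these mice.

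The comparison, gene lists and members were chosen with earlier results of these data known. Any list member could be named. The rule gave values in every library for the up to 4 called members of a list with the smallest adjusted p in each direction, for members called against their list's direction and for 12 genes that the study measured. Not all of these are shown, some genes are not reported here, and others were chosen after their values were seen. Over all genes, the rule took called genes with groups apart and at least 1 CPM, without clone names or receptor segments: the 15 largest changes, the 10 smallest p and the 10 largest CPM differences in each direction, and between weeks the 8 smallest p in each direction.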

Additional observations from a re-analysis of the deposited data

Results flagged for a closer look

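Each result named in the text was examined for 1 library that stood far from the other 3 of its group, by Dixon's test at the 95% level. Of 748 groups of 4 values, 46 were marked, and chance alone marks about 1 in 20. Values are CPM of the library that stood apart. In LRG1 replicate 1, these were Lrg1 at 478, Ccr8 at 0.0318, Il12b at 0, Acp5 at 109.5, Eng at 44.1 and Slc15a5 at 8.77. In LRG1 replicate 2, these were Cd8a at 1.32, Zap70 at 0.608, Nr4a2 at 1.87, Gzmb at 1.22, Cxcl9 at 45.8, Cxcl13 at 18.6, Arg1 at 22.3, Ighg1 at 0.135, Igkc at 59.2, Csf3r at 8.14 and Ccne2 at 11.2. In LRG1 replicate 3, these were Gsdme at 33.1, Cycs at 78.7, Metrnl at 17 and Fos at 14.8. In LRG1 replicate 4, these were Tapbp at 133, Thy1 at 18.2, Klrb1c at 0.741 and Xcr1 at 2.08. In eGFP replicate 1, these were Lrg1 at 86.2, Isg15 at 2.36, Pecam1 at 109 and Fgf1 at 169. In eGFP replicate 2, these were Ccl11 at 61.7, Lpl at 5648, Ccne1 at 8.20, Tgfb1 at 32.4 and Ptprb at 62.5. In eGFP replicate 3, these were Psmb10 at 39.7, Lat at 2.26 and Csf3r at 9.02. In eGFP replicate 4, these were Foxp3 at 1.63, Itgax at 89.5, Masp1 at 5.56, Smad3 at 36.7 and Colq at 0.511. Among summed list levels, regulatory T and type 2 lymphoid genes stood apart in LRG1 replicate 3 at 181 CPM, B and plasma cells genes stood apart in eGFP replicate 2 at 170.2 CPM, neutrophils and eosinophils genes stood apart in LRG1 replicate 2 at 73.3 CPM and LRG1, endoglin and TGF-beta signalling genes stood apart in eGFP replicate 1 at 1256 CPM.

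For 27 of 309 genes named, the effect of LRG1 differed between week 7 and week 10 in edgeR's test of the difference itself (adjusted p below 0.01). The differences in log2FC, week 7 minus week 10, were Pdcd1 -3.70, Tox -3.27, Igtp -2.64, Gbp6 -2.64, H2-DMb1 -2.33, H2-Eb1 -2.33, H2-Aa -2.19, Ciita -2.10, Cd74 -2.04, H2-Ab1 -2.03, Klrk1 -1.96, Ptx3 -1.96, Tap1 -1.82, Gbp2 -1.81, Rtp4 -1.76, H2-Q6 -1.74, Psmb8 -1.70, Psmb9 -1.70, H2-DMa -1.69, Gbp2b -1.51, Psmb10 -1.29, Tap2 -1.18, Nlrc5 -1.16, Psme2 -0.76 and Tapbp -0.67 in the direction of a larger fall at week 7, and Mmp11 1.54 and Ptgfr 1.69 in the other direction.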

How the results depend on the processing

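Precision was limited by 4 mice per group, and at this depth fewer of the weakly expressed genes were called. The higher genes were the less stable. With DESeq2, 2400 genes were called higher and 274 differed between the weeks, and library totals gave 341, 3636 and 122 genes called higher, lower and different between the weeks. At an adjusted p below 0.05, 3113 genes were higher and 3442 lower. A fit of only the 8 week-7 libraries called 2581 higher. The cause of these shifts was not tested. Leaving out each week-7 library in turn gave 724 to 1132 higher, 1496 to 1854 lower, 40 to 92 different between weeks and a log2FC of Lrg1 of 1.55 to 1.83. With DESeq2, 2826 genes were lower, and with limma-voom 1638 were higher and 2255 lower. Other scalings, filters and removal of mitochondrial or immunoglobulin genes gave 1384 to 1993 higher and 1957 to 2237 lower genes, and robust empirical Bayes 1496 and 2212.

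With the replicate number as a block, 1270 genes were higher, 1978 lower and 35 differed between the weeks, and Lrg1 was at 1.73. Same-numbered libraries did not deviate together (correlations of 0.02, 0.22, 0.09 and -0.08, and only replicate 2 correlated best with its own number), so the numbers name mice and do not pair them. No log2FC of the 308 other genes named in the text changed sign with its call in any alternative. Calls were lost for 30 to 64 of them without one library, for 24 under the block and for 48 by library totals, while 30 were gained in the fit of week 7 alone and 17 with DESeq2.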
